A study of Mus musculus with 12 samples.

Results

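The immunoglobulin loci of the mouse were represented on these arrays by 56 probe sets, out of 45037 that were not array controls. A probe set is a group of short probes that together read 1 transcript or a few related ones, and a member was any probe set with at least 1 annotated symbol that starts with Igh, Igk, Iglv, Iglc or Iglj (Ighmbp2, which is not an antibody gene, was left out). Of the 56, 22 carried a heavy chain constant region symbol, 1 a heavy chain variable symbol only, 3 the kappa constant region, 22 only kappa variable segments, 4 the symbol Igk with no segment, 1 the lambda constant region and 3 a lambda variable segment. The arrays came from a study of T cell lymphoma in mice with the ZMYM2-FGFR1 fusion kinase, and 12 samples were hybridised, 1 per array. On the T lineage side stood sorted CD4+CD8+ double-positive (DP) Thy1+ thymocytes of normal Balb/c mice (n = 3, each from the thymuses of 3 mice), T lymphomas from mice of the third serial transplant of ZMYM2-FGFR1 disease (n = 4) and ZNF112, labelled only as a cell line (n = 1). Lymphomas 1, 2 and 3 were unsorted tumours made up mostly of GFP+ Thy1+ DP cells, and lymphoma 4 had been sorted for such cells, to see whether sorting affects expression. On the stem cell side stood haematopoietic stem cells (HSC, Lin- Sca-1+ c-kit+, n = 2) sorted from marrow pooled from 5 female Balb/c mice without disease, and leukaemic stem cells (LSC, n = 2) of the same surface phenotype plus GFP from marrow or spleen pooled from 2 to 3 ZMYM2-FGFR1 mice. The promoter that drives the fusion, the age of the mice and the strain of the diseased mice are not given in the labels. The labels call the replicates biological.

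Antibodies are made by B cells and, at far higher rates, by plasma cells. Each heavy chain pairs with a kappa or lambda light chain, the variable segment sets which antigen is bound, and the constant region sets the class. Ighm encodes the constant region of IgM, the first class a B cell makes, Igha that of IgA, the main antibody of mucosal surfaces, and Ighg3 that of IgG3. Transcripts of unrearranged Ighm are also known in immature T cells, so Ighm is a less strict mark of B lineage RNA than a light chain gene. In bulk samples such as these, fewer antibody-making cells and less antibody RNA per cell cannot be told apart.

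The arrays of the T lineage side had median intensities of 99.2 to 109 and HSC and LSC had 44.2 to 46.0, so the sides looked normalized apart, and levels were compared only within a side. The 3' over 5' signal ratio of beta-actin, which is high where RNA is short, was 2.18 to 3.69 on the T lineage side, 3.91 and 5.79 in HSC and 9.82 and 13.6 in LSC. On the T lineage side Cd3d and Thy1, genes of all T cells, were at 12.59 or above (log2 intensity) in every array. Other genes of the same list were lower in the tumours or the line: Cd5 read 13.3 to 13.4 in DP thymocytes and 5.74 to 7.18 in the lymphomas and the line, and in the line Cd4 read 6.88, Cd8a 8.51 and Cd8b1 6.19, where thymocytes read 13.0 to 14.3. LSC 2 had Cd3d at 11.8 and LSC 1 at 9.41, against 6.17 and 4.93 in HSC, and 9 of the 12 T cell genes rose in LSC against HSC (limma, Benjamini-Hochberg adjusted p under 0.05). HSC 1 differed from HSC 2 in markers of other cells: the mean over 11 macrophage genes was 11.4 against 8.41, that over 13 plasma cell genes 10.5 against 8.31, and that over 18 B cell surface genes 8.10 against 6.49.

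Within the T lineage side antibody transcripts were most widely detected in the unsorted lymphomas, and within the stem cell side in HSC 1. A log2 intensity of 6.33, the median of all values in the table, was used as the detection level, and since 54.7% to 57% of all probe sets exceeded it on the T lineage side and 37.3% to 39.8% on the stem cell side, counts are read within a side. Of the 56 members, 13, 12 and 11 were above it in DP thymocytes 1, 2 and 3, and 19, 25 and 24 in lymphomas 1, 2 and 3. The sorted lymphoma had 12 and the cell line 10. HSC 1 and 2 had 38 and 27, and LSC 1 and 2 had 22 and 14. The sorted lymphoma was therefore in the range of the normal thymocytes, and the unsorted lymphomas were all above it. The 30 members above the level in at least 2 arrays were tested, 6 of them through HSC and LSC arrays only. Of the other 26, 15 were above it in 0 arrays and 11 in 1 array. A member that passed only through the group where it is high had to differ, so counts among the 30 are not counts for all members.

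**Figure D1:**
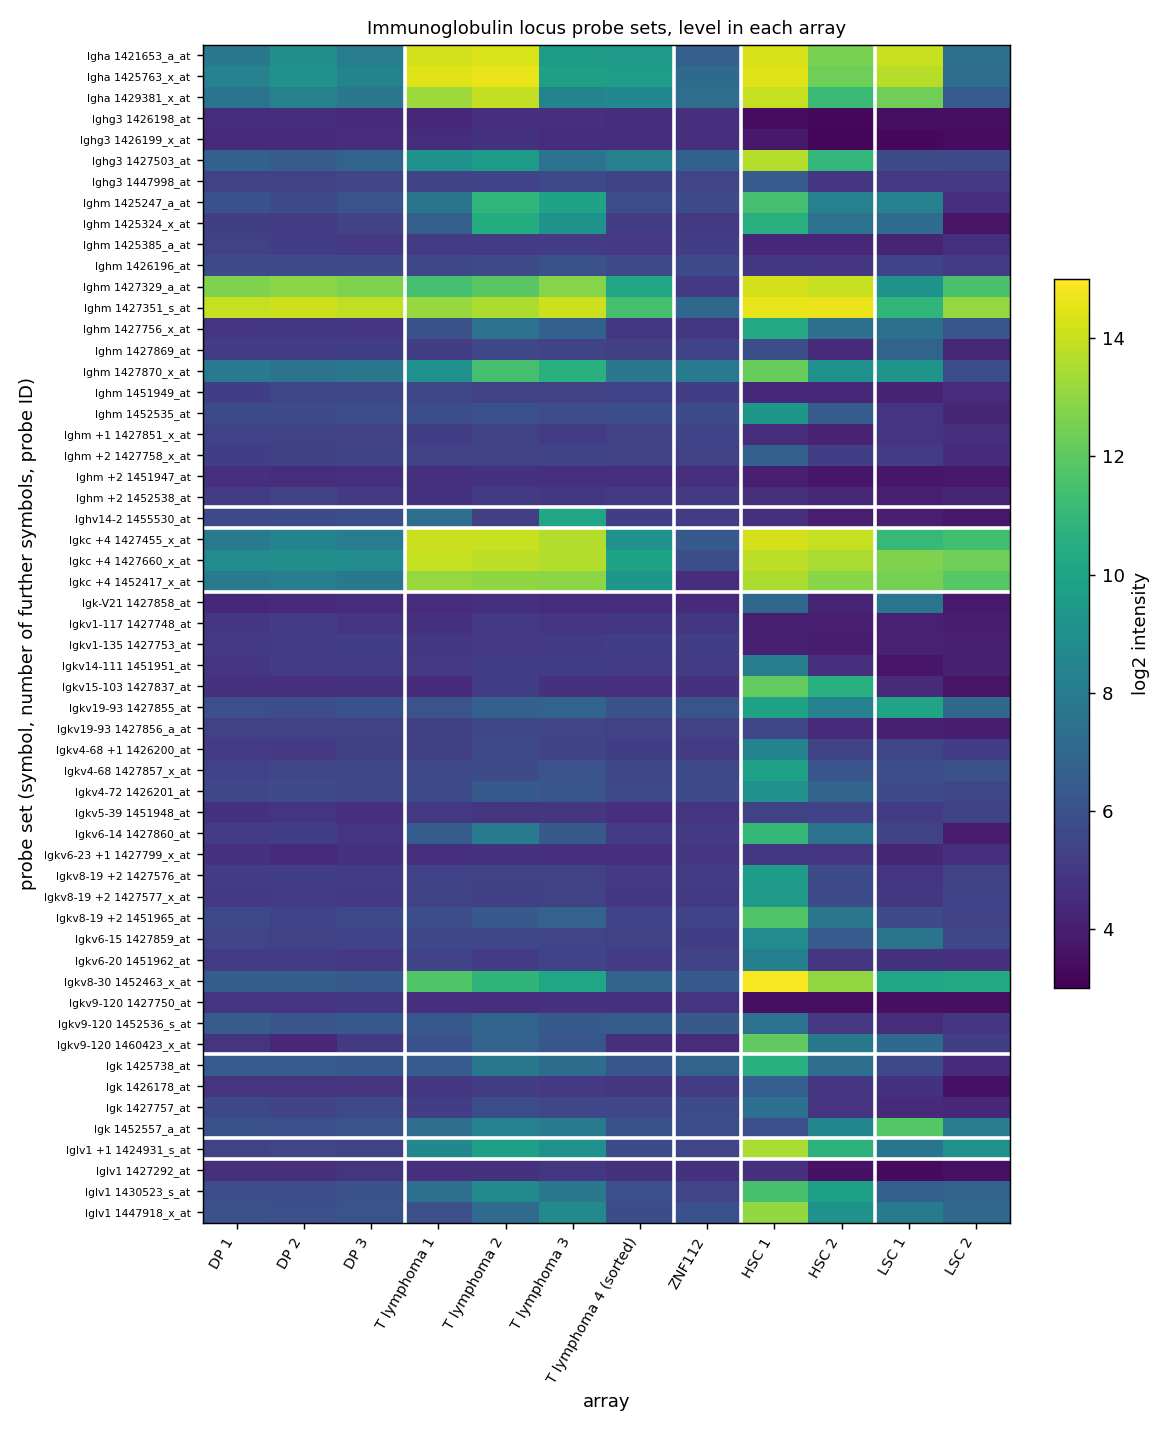
Log2 intensity (colour) of the 56 immunoglobulin probe sets (vertical axis) in the 12 arrays (horizontal axis), with white lines between groups and between classes of segment; colours compare arrays within a probe set, not probe sets with each other. The kappa constant region probe sets are bright in lymphomas 1 to 3, HSC and LSC, and 25 members are above the detection level in lymphoma 2 against 10 in the cell line.

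A pair of Ighm probe sets had high signal in normal thymocytes and in all lymphomas. The Ighm probe set 1427329_a_at read log2 12.69, 12.89 and 12.67 in DP thymocytes, 11.48, 11.92 and 12.83 in lymphomas 1 to 3, 10.10 in the sorted lymphoma and 5.06 in the cell line. Lymphoma 3 lay within the range of the thymocytes, and lymphomas 1 and 2 lay below it. The sorted lymphoma lay below all of these, and the cell line lay under the detection level. A second Ighm probe set, 1427351_s_at, had the same order: 13.93, 14.10 and 13.86 in DP thymocytes, 13.15, 13.54 and 14.07 in lymphomas 1 to 3, 11.47 in the sorted lymphoma and 7.06 in the cell line. Between the sorted lymphoma and DP thymocytes the differences were -2.65 ± 0.82 (SE) and -2.49 ± 0.71, and neither passed (limma, Benjamini-Hochberg adjusted p = 0.207 and 0.16; 1 array against 3). In HSC the first of these probe sets read 14.23 and 13.98, and in LSC 9.10 and 11.55.

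Several other probe sets annotated to Ighm had a different profile, lower in thymocytes and in the sorted tumour than in the unsorted tumours. Probe set 1425247_a_at read 6.01, 5.73 and 6.06 in DP thymocytes, 7.60, 10.89 and 9.90 in lymphomas 1 to 3, 5.84 in the sorted lymphoma and 5.76 in the cell line. Every unsorted tumour was above every thymocyte array, with lymphoma 2 highest and lymphoma 1 lowest. Probe sets 1425324_x_at, 1427870_x_at and 1427756_x_at kept this order of the 3 tumours. Their differences between the unsorted lymphomas and DP thymocytes, with that of 1425247_a_at, were 1.81 to 3.53, and 0 of the 4 passed (limma, Benjamini-Hochberg adjusted p between 0.0864 and 0.147). They were also high in HSC 1, at 10.26 to 12.22, against 7.41 to 9.01 in HSC 2. The same 4 probe sets read 7.22 to 9.20 in LSC 1, near HSC 2, and 3.64 to 6.15 in LSC 2. Of these, 1427870_x_at was above the detection level in every T lineage array. It read 7.59 to 7.91 in DP thymocytes, 7.74 in the sorted lymphoma and 8.01 in the cell line. Probe set 1452535_at was near or under the detection level in all arrays except HSC 1 (9.36) and HSC 2 (6.52). The annotation does not say which part of an Ighm transcript each probe set reads, and the remaining Ighm probe sets were above the level in 0 or 1 array.

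Igha separated the tumours from each other. Probe set 1421653_a_at read 7.87, 8.93 and 8.06 in DP thymocytes, 14.17 and 14.33 in lymphomas 1 and 2, 9.53 in lymphoma 3, 9.44 in the sorted lymphoma and 6.62 in the cell line. Lymphomas 1 and 2 were therefore far above the thymocytes, while lymphoma 3 was close to the sorted tumour. The other Igha probe sets, 1425763_x_at and 1429381_x_at, showed the same split, at 14.44 and 13.24 in lymphoma 1, 14.62 and 13.91 in lymphoma 2, 9.83 and 8.40 in lymphoma 3, and 9.68 and 8.59 in the sorted lymphoma. With this spread, none of the 3 passed between the unsorted lymphomas and DP thymocytes (differences 4.39 ± 1.76, 4.34 and 3.99; limma, Benjamini-Hochberg adjusted p = 0.14, 0.141 and 0.182). These probe sets also had the widest range among the DP arrays of all members, 1.05, 0.84 and 0.63, in each case with thymocyte sample 2 highest. On the stem cell side 1421653_a_at read 14.28 and 12.60 in HSC and 13.98 and 7.37 in LSC, so LSC 1 lay within the range of HSC and LSC 2 far below it.

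Ighg3 separated HSC from LSC, and lymphomas from thymocytes less clearly. Its probe set 1427503_at read 6.73, 6.51 and 6.82 in DP thymocytes, 9.18, 9.56 and 7.56 in lymphomas 1 to 3, 8.23 in the sorted lymphoma and 6.74 in the cell line. All 4 lymphomas were above all thymocytes, the sorted one included, but the difference of 1.95 ± 0.64 missed the threshold (adjusted p = 0.101, limma). HSC read 13.67 and 10.94 and LSC 5.81 and 5.63. The other 3 probe sets with the single symbol Ighg3 were above the level in 0 or 1 array.

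**Figure D2:**
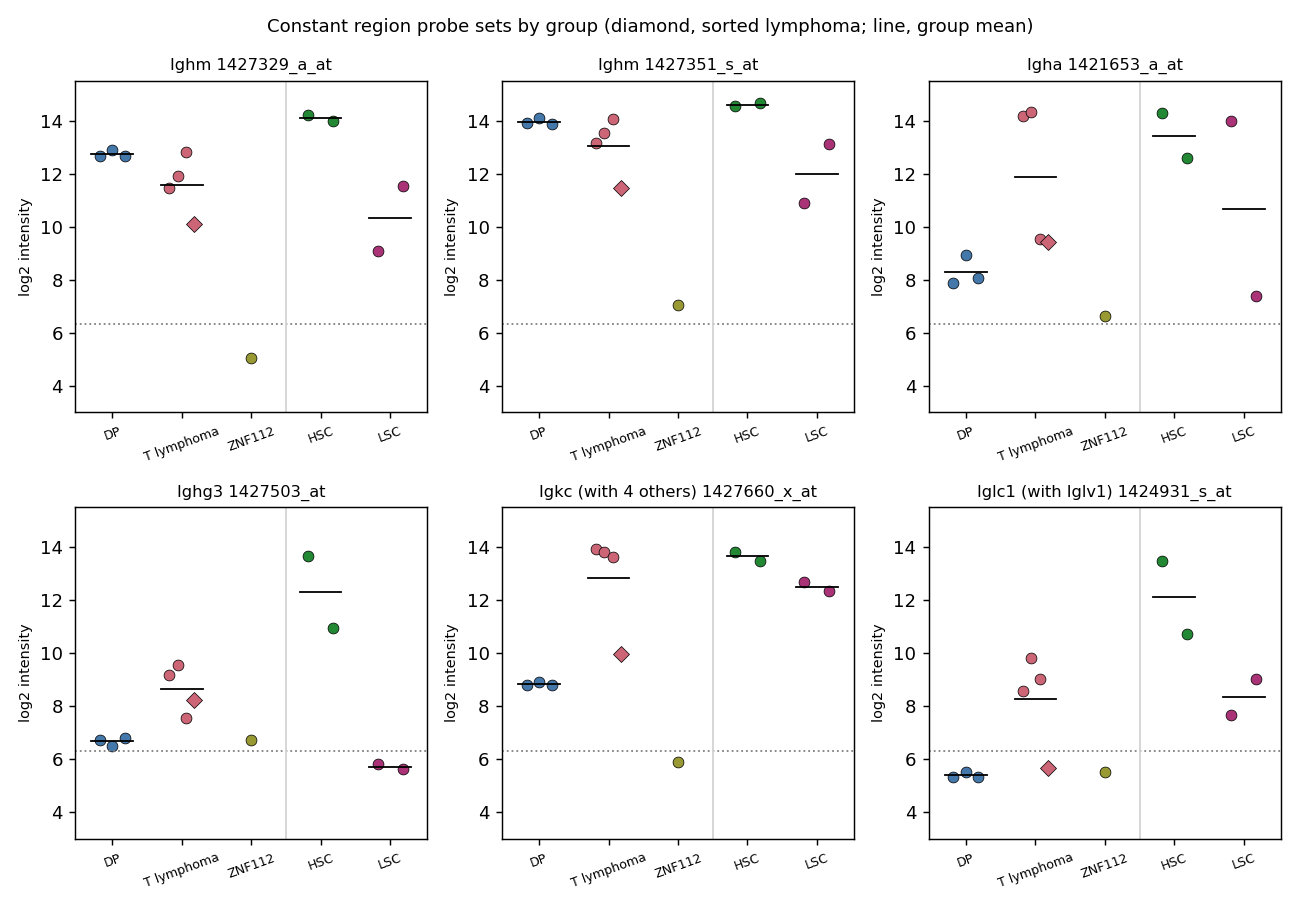
Log2 intensity (vertical axis) of 6 constant region probe sets by group (horizontal axis), 1 point per array. The sorted lymphoma is a diamond, the mean of each group is a line and the detection level is dotted. A grey line divides the sides, which by their array medians looked normalized apart. Ighm is high in DP thymocytes, at 12.67 to 12.89 for 1427329_a_at, whereas the kappa probe set reads 8.79 to 8.93 there and 13.64 to 13.95 in the unsorted lymphomas.

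The kappa light chain gave the clearest difference between unsorted tumours and normal thymocytes. The 3 probe sets that include Igkc, the kappa constant region, share 1 set of 5 symbols and are not independent readings. Probe set 1427455_x_at read 7.96, 8.35 and 8.09 in DP thymocytes, 14.06, 13.99 and 13.63 in lymphomas 1 to 3, 9.07 in the sorted lymphoma and 6.40 in the cell line. Probe set 1427660_x_at read 8.81, 8.93 and 8.79 in DP thymocytes, 13.95, 13.82 and 13.64 in lymphomas 1 to 3, 9.97 in the sorted lymphoma and 5.90 in the cell line. Probe set 1452417_x_at read 7.91, 8.14 and 7.84 in DP thymocytes, 13.15, 13.03 and 12.91 in lymphomas 1 to 3, 9.32 in the sorted lymphoma and 4.51 in the cell line. The unsorted tumours lay close together, far above the thymocytes, and the sorted tumour lay between them, nearer to the thymocytes. Lymphoma 3, which had little Igha, had nearly as much kappa signal as lymphomas 1 and 2. On the stem cell side the probe sets read 12.89 to 14.21 in HSC and 11.03 to 12.70 in LSC.

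Lambda and single variable segments showed the same tumours as high. The probe set for Iglc1 and Iglv1 (1424931_s_at), the lambda constant region and a lambda variable segment, read 5.32, 5.52 and 5.34 in DP thymocytes, 8.58, 9.82 and 9.03 in lymphomas 1 to 3, 5.68 in the sorted lymphoma and 5.51 in the cell line. It was thus under the detection level in each array of the T lineage side except the unsorted tumours. Igkv8-30 (1452463_x_at), a kappa variable segment, read 6.52, 6.55 and 6.33 in DP thymocytes, 11.73, 10.84 and 10.09 in lymphomas 1 to 3, and 6.80 in the sorted lymphoma. The heavy chain variable segment Ighv14-2 (1455530_at) read 10.10 in lymphoma 3 and 7.28 in lymphoma 1 and was under the level in the 10 other arrays. The Iglv1 probe set 1447918_x_at was also highest in lymphoma 3, at 8.75, then in lymphoma 2, at 7.20, and lay under the level in lymphoma 1, at 5.94. Segments were thus not detected alike in the 3 tumours. Igkv9-120 (1460423_x_at) read 12.08 in HSC 1, 7.84 in HSC 2, and 7.12 and 5.24 in LSC, and on the T lineage side it was above the level only in lymphoma 2, at 6.75. Another probe set of this segment, 1452536_s_at, read 6.18 to 6.89 on the T lineage side, near the level, and was above it in 5 of those arrays.

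Unsorted lymphomas were set against DP thymocytes to describe antibody RNA in the tumours as collected. Of the 30 tested members 6 rose and 0 fell, against 5.41% of 27957 probe sets that rose and 8.22% that fell (limma, Benjamini-Hochberg adjusted p under 0.05). The 3 kappa constant probe sets rose by 5.76 ± 0.20 (SE), 4.96 ± 0.18 and 5.06 ± 0.24 on the log2 scale, which is 54.2-fold, 31.2-fold and 33.5-fold (adjusted p = 4.57e-06, 4.82e-06 and 1.5e-05, limma). Igkv8-30 rose by 4.42 ± 0.51 (adjusted p = 0.00148, limma), Iglc1 with Iglv1 by 3.75 ± 0.67 (adjusted p = 0.00963) and Iglv1 (1430523_s_at) by 2.08 ± 0.46 (adjusted p = 0.0215). For the lambda probe sets all DP arrays were under the detection level, so their fold is uncertain. With any 1 of the 6 arrays left out the first 5 were still called, while Iglv1 was called in 1 of the 6 fits. Over all 56 members the median difference was 0.21, against -0.06 over all probe sets, and 19 members differed by more than 1 upward and 0 downward, against 5.96% and 6.34% of all probe sets. All 6 called members are probe sets of the x_at or s_at kind, whose probes can read more than 1 transcript. Without that kind 0 of 15 members passed, where 14% of all probe sets did, with 3 members at an unadjusted p under 0.05 (limma).

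The sorted lymphoma had far less light chain signal than the unsorted ones. Of the 30 members 3 fell and 0 rose, against 0.322% and 0.0537% of all probe sets tested (limma, Benjamini-Hochberg adjusted p under 0.05). The kappa constant probe sets were lower by -4.82 ± 0.29, -3.83 ± 0.26 and -3.71 ± 0.34 (adjusted p = 6.46e-04, 0.00119 and 0.00689, limma), and passed in each of the 3 fits without 1 unsorted tumour. Iglc1 with Iglv1 and Igkv8-30 read 5.68 and 6.80 in the sorted array, below all unsorted tumours, and did not pass. Over all members the median was -0.28 against 0.05 over all probe sets, with 20 below -1, against 4.53% of all probe sets. Only 1 tumour was sorted, and it differs from the others in origin as well as in sorting. In a fit of the 4 lymphoma arrays alone 0% of all probe sets passed, members included, so that fit cannot set the members apart. Of the members 12 had an unadjusted p under 0.05 (limma).

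Against DP thymocytes, the sorted lymphoma had 0 calls among the members, with 5 at an unadjusted p under 0.05, against 1.07% of all probe sets that rose and 0.951% that fell (limma). The kappa constant probe sets were 0.94 ± 0.29, 1.13 ± 0.26 and 1.36 ± 0.34 above the thymocyte means (adjusted p = 0.197, 0.0795 and 0.108, limma). In a fit of these 4 arrays alone 6 members were higher and 3 lower, with 30.9% of all probe sets called, and in a fit of the 8 T lineage arrays 2 and 2, with 6.37% called. With all 4 lymphomas together, only the kappa constant probe sets rose, 3 of 30 members, against 2.76% of all probe sets that rose and 4.7% that fell. Their differences were 4.55, 4.01 and 4.14 (limma, Benjamini-Hochberg adjusted p = 0.0322, 0.0217 and 0.0172). That count was 6 without the sorted lymphoma, where 13.7% of all probe sets were called, against 7.45% with all arrays. It was 1 without lymphoma 1 (4.92%) or without lymphoma 3 (5.74%). It was 0 without lymphoma 2 (4.76%) or without any 1 of the DP arrays (3% to 3.04%). Each of these last 4 fits had 6 members at an unadjusted p under 0.05 (limma).

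The cell line had less antibody signal than the tumours. Of the 30 members 4 fell and 0 rose against the 4 T lymphomas, where 0.343% of all probe sets fell and 0.397% rose (limma, Benjamini-Hochberg adjusted p under 0.05; 1 array against 4). The Ighm probe sets 1427329_a_at and 1427351_s_at were lower by -6.53 ± 0.98 and -6.00 ± 0.93 (adjusted p = 0.0224 and 0.026), and the kappa probe sets 1452417_x_at and 1427660_x_at by -7.59 ± 1.21 and -6.95 ± 1.24 (adjusted p = 0.0282 and 0.0432). Except for 1427351_s_at, these lay under the detection level in the cell line, so the size of the fall is uncertain. The Ighm probe set 1427329_a_at therefore divided the sorted arrays from the line: the sorted lymphoma read 10.10, the thymocytes at least 12.67 and the line 5.06. The Ighm probe set 1427870_x_at did not, at 7.74 in the sorted lymphoma, 7.59 to 7.91 in thymocytes and 8.01 in the line. The count was 1 without lymphoma 1 (0.614% of all probe sets called), 0 without lymphoma 2 (0.306%) and 6 without the sorted lymphoma (1.41%). Without lymphoma 2, 5 members had an unadjusted p under 0.05 (limma). In the fit of these 5 arrays alone the count was 0 too, with 0.0286% of all probe sets called. Again 5 members had an unadjusted p under 0.05 (limma).

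LSC were set against HSC, their normal counterpart by surface markers, and 35 of the 56 members were lower by more than 1. Of 30 members 9 fell and 0 rose, against 4.67% and 3.81% of all probe sets (limma, Benjamini-Hochberg adjusted p under 0.05). Of the 9, Igkv15-103 and Ighm (1452535_at) were tested only because both HSC arrays were above the detection level, so a difference was built in. Without such members 7 of 27 fell. Among the 7, Igkv4-72 (1426201_at) was above the level only in HSC 1 (9.05), HSC 2 (6.81) and lymphoma 2 (6.41). Its entry to the test thus also rested on HSC, the group where it is high. Other values moved alongside: in LSC 3 of 8 granulocyte and 2 of 5 erythroid genes fell, with granulocyte sums of 38160 and 43500 in HSC and 12500 and 1457 in LSC, and the beta-actin ratio was higher (9.82 and 13.6 against 3.91 and 5.79). Their part in the result was not tested. Ighg3 (1427503_at), with 13.67 and 10.94 in HSC against 5.81 and 5.63 in LSC, was lower by -6.59 ± 0.83 (adjusted p = 0.00214, limma). Both LSC arrays are under the level, so the fold is uncertain. The next were Igkv6-14 at -4.53 ± 1.11, the probe set of Igkv6-14, Igkv6-23 and Igkv8-19 (1451965_at) at -4.23 ± 1.01, Iglv1 (1430523_s_at) at -3.89 ± 0.79, Igk (1425738_at) at -3.87 ± 0.93, Ighm (1427329_a_at) at -3.78 ± 0.88 and Igkv4-72 at -2.26 ± 0.58, with adjusted p between 0.0182 and 0.044 (limma). As a description only, Igkv15-103 (1427837_at) read 12.10 and 10.50 in HSC, 4.44 and 3.63 in LSC and 4.43 to 5.23 on the T lineage side, and Ighm (1452535_at) read 9.36 and 6.52 in HSC and 4.83 and 4.28 in LSC.

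HSC 1 was above HSC 2 in all 9 of these members. The gap was widest in 1451965_at, with 11.76 and 7.75, and in Igkv6-14, with 10.97 and 7.49. It was small in Ighm 1427329_a_at, with 14.23 and 13.98. Every HSC value was above every LSC value in the 9. A fit without 1 stem cell array leaves 1 array in its group, so only sizes are given. Over the 4 such fits Ighg3 was lower by -7.95 to -5.22, Igkv6-14 by -6.27 to -2.79 and Igkv4-72 by -3.38 to -1.14. Their falls were smaller without HSC 1 than with all arrays. The count of 9 rests on a spread shared with the T lineage arrays. With only the 4 stem cell arrays 0 members passed and 13 had an unadjusted p under 0.05 (limma), and 0% of all probe sets passed.

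**Figure D3:**
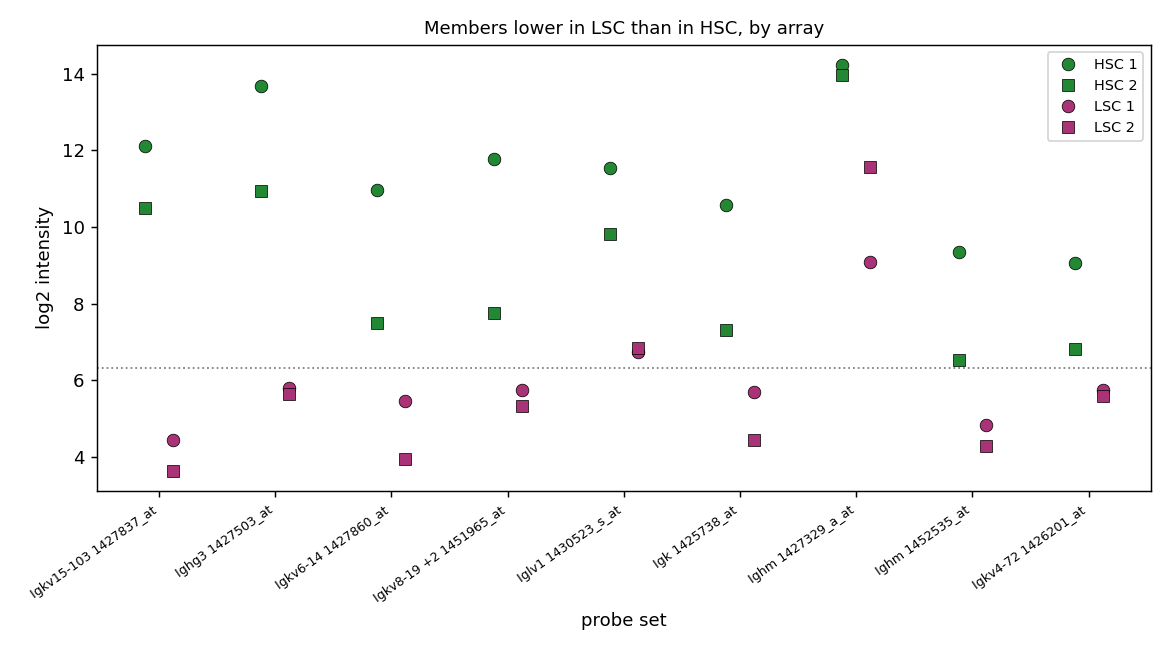
Log2 intensity (vertical axis) of the 9 members that fell in LSC against HSC (horizontal axis), 1 point per array, with circles for replicate 1, squares for replicate 2 and the detection level dotted. The plot includes Igkv15-103 and Ighm 1452535_at, which were tested only through HSC; HSC points lie above LSC points for each member, and HSC 1 lies above HSC 2, by most in 1451965_at (11.76 and 7.75).

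The kappa constant region and Igha were not among the members that fell. The kappa constant probe sets were lower in LSC by -2.88 ± 1.38, -1.14 and -1.03, none past the test (limma, Benjamini-Hochberg adjusted p = 0.245, 0.583 and 0.617). Igha was at 13.98 in LSC 1, within the range of HSC (12.60 to 14.28), and at 7.37 in LSC 2. Without LSC 2 its difference turned from -2.76 to 0.54 for 1421653_a_at and from -2.88 to 0.33 for 1425763_x_at. Igk (1452557_a_at) was the single member more than 1 above HSC, at 11.84 and 8.05 in LSC against 5.92 and 8.50, with a difference of 2.74 ± 1.22 (adjusted p = 0.209, limma). Without LSC 2 the difference was 4.63. Over all 56 members the median was -1.62, against 0.08 over all probe sets, and 35 members were below -1, against 8.75% of all probe sets.

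The 2 disease comparisons differed for 8 members, all with the larger value in T lymphoma against DP thymocytes, against 3.9% of all probe sets in that direction and 4.07% in the other (adjusted p under 0.05, limma). The 8 include Igkv15-103 and Ighm (1452535_at), tested only through HSC, and without such members the count was 6 of 27. The differences of greatest size among the 6 were 8.53 ± 1.05 for Ighg3 (adjusted p = 0.00252, limma) and 7.43 ± 1.74 for the kappa probe set 1427455_x_at (adjusted p = 0.034). Ighg3 and Iglv1 (1430523_s_at) passed in each fit without 1 T lineage array. The count of 8, with 7.97% of all probe sets called, became 14 without the sorted lymphoma (11.9%) and 4 without lymphoma 1 (5.86%). It was 3 without lymphoma 2 (4.43%), lymphoma 3 (6.35%) or any 1 DP array (3.02% to 3.14%). A fit without a stem cell array leaves 1 array in its group, so only sizes are given. Over all 11 fits without 1 array the difference was 7.17 to 9.90 for Ighg3 and 6.98 to 8.64 for 1427455_x_at.

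Other B lineage genes did not move as a block with the antibody genes. The B cell surface list, genes such as Cd79a and Cd79b (signalling chains of the B cell receptor) and Ms4a1 (the CD20 antigen), had 0 of 16 tested genes called in any comparison, with 3 at an unadjusted p under 0.05 between unsorted lymphomas and DP thymocytes and 2 between LSC and HSC (limma). Ms4a1 read 5.59, 5.78 and 5.68 in DP thymocytes, 6.59 and 6.02 in lymphomas 1 and 2, 10.74 in lymphoma 3, 5.53 in the sorted lymphoma and 5.27 in the cell line. On the T lineage side lymphoma 3 alone was well above the detection level. On the stem cell side HSC 1 was, at 9.0, with 5.01 in HSC 2 and 4.20 and 4.82 in LSC. Cr2, a complement receptor of mature B cells, read 8.83 in lymphoma 3 and under the level in the 11 other arrays. Cd79a was under the level in the thymocytes, at 6.37 and 5.88 in lymphomas 1 and 2, and at 8.82 in lymphoma 3, and it read 9.57 and 6.25 in HSC and 6.45 and 6.33 in LSC. Cd79b read 8.19 to 8.45 in thymocytes, 7.23, 6.52 and 10.93 in lymphomas 1 to 3 and 6.16 in the sorted lymphoma. Some genes of the list were higher in LSC 1 than in HSC 1: Blnk (10.56 against 10.21), Btk (10.26 against 9.35) and Bank1 (9.61 against 9.17). Over the 18 genes the median difference of LSC from HSC was -0.69. The summed intensity of the 18 surface genes was 5182 to 6431 in DP thymocytes, 4772, 4298 and 14750 in lymphomas 1 to 3, 4446 in the sorted lymphoma, 3333 in the cell line, 8967 and 3335 in HSC and 6141 and 1468 in LSC. In each T lineage array except lymphoma 3, Cd37 (10.24 to 11.47) and Tnfrsf13b (9.62 to 11.15) had the highest values of this list. The sum there follows these genes more than Ms4a1 or Cd79a. Fcer2a, another receptor of mature B cells, was under the level in all 12 arrays.

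The tumours thus differed in which B lineage genes accompanied the light chains. Relative to the thymocyte mean, lymphomas 1 and 2 had Igha (1421653_a_at) higher by 5.88 and 6.04 and Ms4a1 higher by 0.90 and 0.34. Lymphoma 3 had the reverse, with Igha higher by 1.24 and Ms4a1 by 5.05. The kappa probe set 1427660_x_at was higher by 5.11, 4.98 and 4.80 in the 3, and by 1.13 in the sorted tumour. These are values of single tumours and the differences among them have no replicate.

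**Figure D4:**
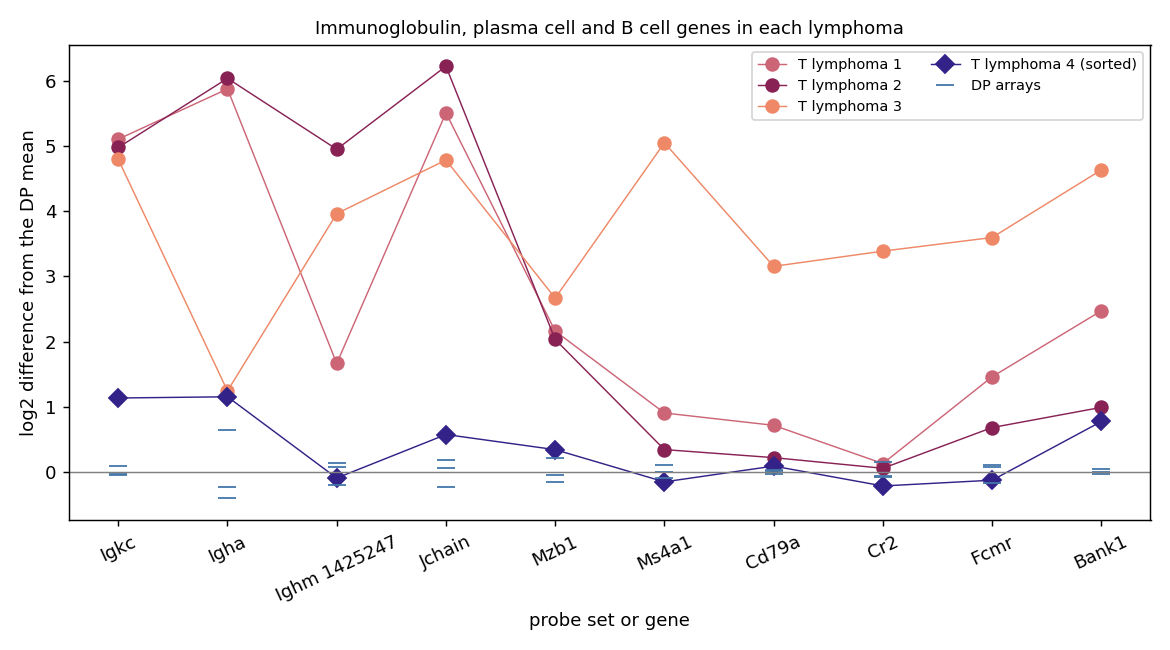
Log2 difference of each lymphoma from the mean of the 3 DP thymocyte arrays (vertical axis) for immunoglobulin probe sets, plasma cell genes and B cell genes (horizontal axis), 1 marker per tumour, with short dashes for the DP arrays; the joining lines only guide the eye. Lymphoma 3 is lowest of the unsorted tumours for Igha (1.24) and highest for Ms4a1 (5.05). The sorted tumour stays at or below 1.15 for the plotted items. Some probe sets not plotted were higher in it, such as Ighg3 1427503_at (1.55) and the kappa probe set 1452417_x_at (1.36).

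Plasma cell genes gave 2 calls of 12 tested in the unsorted lymphomas, both higher: Jchain, which joins IgA and IgM units, and Sdf2l1, a chaperone partner of the endoplasmic reticulum. Sdf2l1 rose by 1.54 and was also high in the sorted lymphoma (9.18) and the cell line (9.64), against 7.82 to 8.14 in thymocytes. Mzb1, a chaperone of antibody assembly, read 7.84 to 8.21 in DP thymocytes, 10.16, 10.03 and 10.67 in lymphomas 1 to 3 and 8.34 in the sorted lymphoma. Irf4, also of this list, was highest in the sorted lymphoma, at 11.33. It read 6.69 to 6.91 in DP thymocytes, 8.02, 9.02 and 8.19 in lymphomas 1 to 3 and 5.75 in the cell line. A second Irf4 probe set was under the level in all arrays. Tnfrsf17, the BCMA receptor of plasma cells, was above the level in HSC 1 only, at 9.42, and the plasma cell surface gene Sdc1 read 10.06 in HSC 1 against 6.67 in HSC 2. Between LSC and HSC 2 of 12 fell, Creld2 by -2.11 and Sdf2l1 by -1.88, both genes of protein folding. The summed intensity of the 13 measured genes was 27820 to 29040 in DP thymocytes, 38400, 40110 and 29640 in lymphomas 1 to 3, 38340 in the sorted lymphoma, 30330 in the cell line, 43780 and 17880 in HSC and 18970 and 23090 in LSC. In thymocytes, the sorted lymphoma and the cell line Edem1 (13.94 to 14.33) and Xbp1 (12.74 to 13.53) had the highest values of this list. The sum there follows these genes, while Jchain read 7.62 in the sorted lymphoma, against 12.56 and 13.28 in lymphomas 1 and 2. Of the lineage factors, 0 of 10 passed between unsorted lymphomas and thymocytes, with 4 at an unadjusted p under 0.05 (limma). Pax5, the factor that commits cells to the B lineage, had its highest value in lymphoma 3, at 7.42, against 6.35 to 6.67 in the other arrays of that side. A second Pax5 probe set, under the level in all arrays, did not show this, at 5.42 in lymphoma 3 and 5.31 to 5.53 in thymocytes. Pou2af1, a coactivator of antibody genes, read 8.24, 8.53 and 10.94 in lymphomas 1 to 3 and 8.18 in the sorted tumour, against 5.88 to 6.33 in thymocytes.

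Genes that handle antibodies or B cell development are listed here by count. Among 7 tested Fc receptor and transport genes, Fcgr3, a low-affinity IgG receptor, and Fcgrt, which recycles IgG, rose in the unsorted lymphomas by 4.27 and 3.23 (limma, Benjamini-Hochberg adjusted p = 0.0284 and 0.0199). In the surrogate light chain and recombination list 1 of 6 fell there, Rag1, and between LSC and HSC Rag1 rose by 3.89 and Vpreb1, a surrogate light chain gene, fell by 1.92. In the class switching and germinal centre list 2 of 6 rose and 1 fell in the unsorted lymphomas: Apobec1 by 1.56, S1pr2 by 0.64, and Bcl6 by -3.79. MHC class II genes, which B cells share with macrophages and dendritic cells, had 7 of 10 higher, among them H2-Ea by 5.61 and H2-Eb1 by 5.06.

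Markers of macrophages and of stroma moved with the light chains. Of 8 granulocyte genes 0 passed in the unsorted lymphomas, with 1 at an unadjusted p under 0.05 (limma) and a median difference of 1.14. Of 5 tested erythroid genes 0 rose and 1 fell there. Of 11 macrophage genes 10 rose in the unsorted lymphomas, among them Vcam1 by 6.39 and Lyz2 by 5.13, and of 11 stroma and endothelium genes 8 rose, among them Dcn by 7.71. The summed macrophage intensity was 1365 to 1526 in DP thymocytes, 67350, 29830 and 37390 in lymphomas 1 to 3, 3619 in the sorted lymphoma, 2158 in the cell line, 36800 and 7099 in HSC and 31440 and 4258 in LSC. The stroma sum was 957.7 to 1096 in thymocytes, 35790, 18040 and 19540 in lymphomas 1 to 3, 918.5 in the sorted lymphoma and 1027 in the cell line. The probe sets used for the stromal and macrophage markers Dcn, Col3a1 and C1qb were under the detection level in thymocytes, the sorted lymphoma and the cell line, while a second Dcn probe set was just above it in 2 thymocyte arrays, at 6.40 and 6.34. Their part in the antibody results was not tested.

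The gene whose pattern over the 8 T lineage arrays was most like the mean of the tested members was Jchain. Its Pearson r was 0.988 among 23045 candidate probe sets, and the 8 points fall into groups, so r describes their separation. Jchain read 6.81, 7.23 and 7.10 in DP thymocytes, 12.56, 13.28 and 11.83 in lymphomas 1 to 3, 7.62 in the sorted lymphoma and 5.86 in the cell line. All unsorted tumours were above all other arrays of the side, and the difference of 5.51 ± 0.69 passed (limma, Benjamini-Hochberg adjusted p = 0.00207). On the stem cell side it read 13.82 and 13.06 in HSC and 13.16 and 10.22 in LSC, and the difference between them did not pass. The next most alike were Ptx3, Hp, Fcgr2b, Cxcl16, Clec7a, Adipoq, H2-Aa, H2-Ea and Igfbp3, with r from 0.972 down to 0.960. Of these, Fcgr2b is an inhibitory IgG receptor, H2-Aa and H2-Ea are MHC class II genes, and Adipoq is a fat cell hormone, at 8.47, 9.59 and 8.50 in lymphomas 1 to 3 and at most 5.05 in the other arrays of the side.

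**Figure D5:**
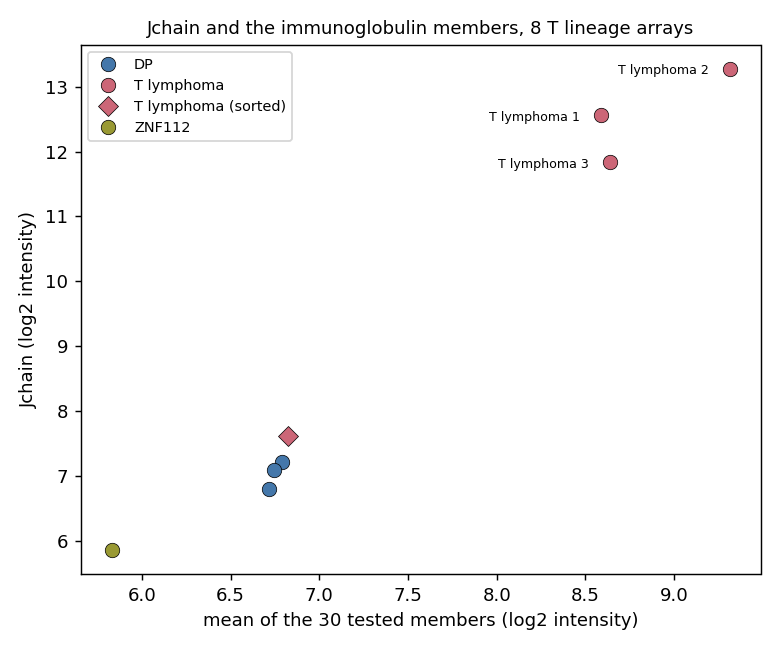
Log2 intensity of Jchain (vertical axis) against the mean of the 30 tested immunoglobulin probe sets (horizontal axis, log2 intensity) in the 8 T lineage arrays, 1 point per array. The unsorted lymphomas form 1 cluster, with Jchain at 11.83 to 13.28, and the sorted lymphoma (7.62) lies beside the DP thymocytes (6.81 to 7.23).

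The upstream sequence of Jchain is shown because this gene followed the members most closely, and that of Vpreb3, a gene of B cell precursors, because it carries the octamer motif for which antibody promoters are known. No member had a promoter in the RefSeq table used here (GRCm38.p6). The motif searched was ATTTGCAT on either strand (ATGCAAAT on the other), in windows from 250 bases before to 50 after each gene's start. It was in 570 of 32851 windows of 300 bases, or 1.74%. Of 13 B lineage genes looked for, 10 had a window and 1, Vpreb3, held it, in capitals below. Both sequences are the 250 bases before the start, 5′ to 3′ on the gene's strand, at chr5:88527898-88528147 on the minus strand for Jchain and chr10:75948050-75948299 on the plus strand for Vpreb3.
Jchain: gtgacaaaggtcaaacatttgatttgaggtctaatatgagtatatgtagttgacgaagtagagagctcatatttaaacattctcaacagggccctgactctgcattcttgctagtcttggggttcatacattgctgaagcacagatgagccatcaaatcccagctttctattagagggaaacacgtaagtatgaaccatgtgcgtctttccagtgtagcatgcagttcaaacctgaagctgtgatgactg
Vpreb3: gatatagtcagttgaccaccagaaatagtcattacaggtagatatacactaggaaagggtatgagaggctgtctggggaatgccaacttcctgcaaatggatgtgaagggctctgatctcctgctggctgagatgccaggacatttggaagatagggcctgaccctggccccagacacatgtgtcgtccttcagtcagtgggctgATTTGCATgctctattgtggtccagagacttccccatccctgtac
Vpreb3 itself read 5.77 to 6.14 in DP thymocytes and 5.83 to 6.35 in the lymphomas, at or near the detection level, whereas Jchain, without these letters in its window, had the values above. A match is a description of letters and not of a bound site, and no match says only that they are not in this window.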

How the data were processed

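Total RNA was extracted with Trizol, amplified in 2 cycles with an Affymetrix kit and hybridised to Affymetrix Mouse430 2.0 arrays, per the labels' protocols. The authors deposited 1 linear intensity per probe set and array. RMA (robust multi-array average), without a version, is the tool listed in the submitters' processing notes. Scanner files were not used here. Log2 was taken of the deposited intensities. Gene symbols came from the platform annotation, which can be old: 34945 of 45037 probe sets had 1 symbol, 932 several and 9160 none. Of the 56 members 43 had 1 symbol and 13 several, and 55 matched RefSeq through the Entrez identifier, with 0 symbols changed. Probe sets above log2 6.33 (an intensity of 80.2) in at least 2 of the 12 arrays were tested, 27957 in all. The limma package, version 3.58.1 under R 4.3.3, fitted (with eBayes, two-sided) a mean for each of 5 groups over the 12 arrays, or of 6 groups with the sorted lymphoma apart, with Benjamini-Hochberg adjustment over all probe sets tested and an adjusted p under 0.05 as a call. For a group of 1 array, the spread is that of the other groups. The scripts were tested on simulated data. A gene outside the members is represented by 1 probe set. Named with values were constant region members, the others with the highest values, those called and those that varied most among DP arrays. The members, lists and tests were chosen with earlier results of these data known. Arrays have no read depth, so their number limits the precision. Promoter sequences are from RefSeq, build GRCm38.p6; member sequences were not analysed here.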

Additional observations from a re-analysis of the deposited data

Results flagged for a closer look

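In the T lymphoma group of 4, the sorted tumour was far below the other 3 for the 3 kappa constant region probe sets, by Dixon's criterion for a group of 4. It read 9.07 for 1427455_x_at where the nearest tumour read 13.63, 9.97 for 1427660_x_at against 13.64, and 9.32 for 1452417_x_at against 12.91. Of 30 members examined 3 met the criterion; chance alone marks about 1 in 20 groups, and the 3 probe sets share their symbols.

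The difference of the disease comparisons, T lymphoma minus DP thymocytes less LSC minus HSC, passed for 8 of 30 members (limma, Benjamini-Hochberg adjusted p under 0.05). It was 8.53 for Ighg3, 7.43 for the kappa probe set 1427455_x_at, 7.33 for Igkv15-103, 7.2 for Igkv8-30, 6.64 for Iglc1 with Iglv1, 5.99 for Igkv6-14 (1427860_at), 5.45 for Iglv1 (1430523_s_at) and 3.51 for Ighm (1452535_at). Igkv15-103 and Ighm (1452535_at) were tested only because both HSC arrays were above the detection level, so their values are a description, and 6 of 27 passed without such members. The beta-actin ratio differed between the sides, at 2.18 to 3.69 against 3.91 to 13.6, and its part in these values was not tested.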

How the results depend on the processing

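Other normalizations, filters on low values and a trended robust prior moved no count of called members by over 1.5 times. With array weights, members higher were 17 (3 in the fit reported) in T lymphoma against DP thymocytes, with 1 lower (0), 17 (6) in unsorted lymphomas, 3 with 2 lower (0 and 0) in the sorted lymphoma and 3 (8) for the difference of the disease comparisons, and members lower were 8 (3) for sorted against unsorted, 11 (4) for the cell line and 2 (9) for LSC. With these weights 37.7%, 34.9% and 14% of all probe sets were called in T lymphoma, unsorted and sorted lymphoma against DP thymocytes, 6.35% for sorted against unsorted, 10.4% for the cell line, 0.744% for LSC and 2.07% for the difference. Fitting only the arrays compared gave 16 higher for unsorted lymphomas (33.3% of all probe sets called) and 6 higher and 3 lower for the sorted one (30.9%). It gave 0 lower for sorted against unsorted (0%), the cell line (0.0286%) and LSC (0%). Only the arrays of the same side gave 16 (33.3%), then 2 higher and 2 lower (6.37%). They gave 7 lower for sorted against unsorted (3.38%) and 0 for LSC (0%). Without x_at and s_at probe sets the counts were 0 for T lymphoma (7.8% of all probe sets called) and 0 for unsorted lymphomas (14%). They were 0 for sorted against unsorted (0.284%), 1 for the cell line (0.795%) and 4 for the difference (8.04%). With 1 symbol only they were 0 (6.22%), 2 (12.1%), 0 (0.485%) and 2 (0.772%) in the same order up to the cell line. The cause was not tested, beyond that fewer arrays or probe sets entered these fits.

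Leaving out 1 array gave 0 to 6 members higher in T lymphoma (3% to 13.7% of all probe sets called). It gave 5 to 6 higher in unsorted lymphomas (5.06% to 11.9%) and 0 in the sorted one (0.63% to 0.672%). Members lower were 3 for sorted against unsorted (0.21% to 1.48%) and 0 to 6 for the cell line (0.306% to 1.41%). Leaving out a T lineage array gave 3 to 14 higher for the difference (3.02% to 11.9%). Leaving out a stem cell array leaves 1 in its group, so only sizes are given. Without LSC 2, Igha turned from -2.76 to 0.54 (1421653_a_at) and from -2.88 to 0.33 (1425763_x_at), and without LSC 1 they were -6.07 and -6.10.

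Replicate numbers showed no clear pairing on the T lineage side. Same-numbered DP and lymphoma arrays deviated from their group means with r = 0.043, -0.091 and -0.007, and other pairs with -0.058 to 0.121. The lymphoma mean included the sorted tumour, so this check is weak. HSC and LSC gave 0.08 for same numbers and -0.08 for others. With 2 arrays a group the deviations mirror each other, so these values cannot decide it. With a replicate block, members higher were 9 in T lymphoma (9.01% of all probe sets called) and 16 for the difference (7.26%). Other counts stayed within 1.5 times. Precision is limited by 1 to 4 arrays a group, and members under the detection level have uncertain folds.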
